A study of Penicillium oxalicum with 12 samples.

Results

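The genes described here are 4 accessory genes for the breakdown of plant cell walls in *Penicillium oxalicum*, a filamentous fungus that secretes cellulases. They are PDE_06439 (endoglucanase-1), PDE_00507 (endoglucanase EG-II), PDE_07928 (endoglucanase-5) and PDE_02102 (expansin-B1), and they were taken by locus tag, with these names, from a table of wall-degrading and cellulose-binding genes that the study drew up. They are 4 of the 9909 genes with a read in at least 1 library, and all 4 passed the filter on low counts that left 9088 genes for testing. The study put genes in that table because they were lower in Δ*Podot1* than in WT in cellulose, judged on these same libraries. The strain comparison in cellulose is therefore given below as a description, without a test.

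Cellulose is broken down by enzymes that act together. Endoglucanases cut inside the glucan chains, cellobiohydrolases release cellobiose from the chain ends, and beta-glucosidases split cellobiose into glucose. Expansins and related fungal proteins bind and loosen cellulose without being known to cut it in that way. In filamentous fungi, such genes are typically kept low while glucose is plentiful and are switched on by cellulose. Dot1 is the methyltransferase that acts on lysine 79 of histone H3, and *Podot1* (PDE_07484) is its *P. oxalicum* gene.

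The WT was strain 114-2. In Δ*Podot1*, made from it, the *Podot1* coding region was exchanged for a hygromycin resistance marker. Both strains were first grown on 2% glucose, and the washed mycelia were then moved for 24 h to fresh medium with either 2% glucose (glucose medium) or 1% microcrystalline cellulose with 1% wheat bran (cellulose medium). Each of the 4 combinations had 3 libraries, which the study describes as biological replicates, and levels are given as FPKM, a read density scaled for transcript length and for the mapped reads of the library. The labels and the study's methods differ on the protocol, which is tag profiling in the former and whole-transcript RNA-seq in the latter. RNA came from whole mycelium, so fewer cells that express a gene and less RNA per cell cannot be told apart.

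The libraries held 4607764 to 7081689 assigned reads. *Podot1* itself stood at 25.83 to 36.39 FPKM in the 6 WT libraries and at no more than 0.19 FPKM in the 3 Δ*Podot1* libraries in glucose. In cellulose, the libraries labelled Δ*Podot1* went against their label in replicates 1 and 2, with *Podot1* at 33.37 and 58.38 FPKM, and only replicate 3 listed no *Podot1* read. Replicate 2 of this group also stood apart across all genes. On log2(FPKM + 1) over 9274 genes, its mean Pearson correlation was 0.904 with the Δ*Podot1* glucose libraries and 0.864 with the WT glucose libraries. It was 0.651 with the rest of its group and 0.566 with WT in cellulose. These are correlations across genes, which are not independent replicates. These 3 libraries are called the libraries labelled Δ*Podot1* below, and the tests that rest on them are given with and without the libraries in question. What the *Podot1* reads and the likeness to glucose contribute to the results was not tested beyond that.

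In glucose medium all 4 genes were low in both strains, at rank 6612 or lower by FPKM in every library. PDE_06439, annotated as an endoglucanase with a term for xyloglucan, the hemicellulose that coats cellulose, stood at 3.26, 5.67 and 8.02 FPKM in WT replicates 1, 2 and 3. In Δ*Podot1* in glucose it stood at 6.25, 5.10 and 7.74 FPKM. The ranges overlapped, and the widest spread of the 4 genes at baseline was that of PDE_06439 in WT.

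PDE_00507, an endoglucanase with a cellulose-binding annotation, stood at 3.46, 5.15 and 4.27 FPKM in WT in glucose and at 2.94, 3.41 and 3.09 FPKM in Δ*Podot1*. Every Δ*Podot1* library was below every WT library, by a small margin between 3.41 and 3.46 FPKM. PDE_07928, an endoglucanase of glycoside hydrolase family 45, stood at 6.82, 6.59 and 6.92 FPKM in WT in glucose. In Δ*Podot1* it stood at 8.17, 6.71 and 7.35 FPKM, a range that overlapped that of WT.

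PDE_02102, the expansin-like protein with a fungal cellulose-binding domain, stood at 2.69, 2.20 and 3.38 FPKM in WT in glucose and at 3.96, 4.81 and 3.83 FPKM in Δ*Podot1*. Here every Δ*Podot1* library was above every WT library. The baselines rested on few reads, between 15 and 61 per gene and library, and the precision of the tests is given by the intervals below.

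None of the 4 genes was called in Δ*Podot1* against WT in glucose, where edgeR called 8.84% of the 9088 genes in either direction at a Benjamini-Hochberg adjusted p under 0.05 and at least 2-fold. The log2 fold change was 0.06 ± 0.473 for PDE_06439 and -0.54 ± 0.817 for PDE_00507 (standard error, 3 libraries per group), with adjusted p of 0.961 and 0.737 in edgeR's quasi-likelihood test. It was 0.05 ± 0.892 for PDE_07928 and 0.52 ± 0.832 for PDE_02102, with adjusted p of 0.985 and 0.758 in the same edgeR test. No gene of the 4 had an unadjusted p under 0.05 in edgeR, DESeq2 or limma, and the lowest of the 4 in edgeR was 0.519. The 95% intervals of the log2 fold changes were wide, from -2.32 to 1.24 for PDE_00507 and from -1.3 to 2.33 for PDE_02102, and reached past 2-fold in both directions. Without the 2 cellulose libraries that go against their label, which enter the shared estimate of the spread, the edgeR adjusted p was 0.226 for PDE_00507 and 0.277 for PDE_02102, at log2 fold changes of -0.55 and 0.51. The 2 genes whose groups did not overlap, PDE_00507 and PDE_02102, had an exact permutation p of 0.1, two-sided, the smallest that 3 against 3 libraries can give. Groups without overlap were common in this comparison, at 41.6% of the genes tested.

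In WT, all 4 genes were higher in cellulose medium than in glucose medium, PDE_02102 and PDE_07928 by the most in the edgeR fit. The media differed in glucose, cellulose and wheat bran at once, so the parts these play cannot be told apart. PDE_06439 rose to 201.48, 162.91 and 63.46 FPKM in WT replicates 1, 2 and 3. It was the lowest of the 4 in cellulose, and replicate 3 was far below the other 2 libraries, but the lowest cellulose library was still 7.91 times the highest glucose library. PDE_00507 rose to 226.09, 303.03 and 445.30 FPKM, and here replicate 3 was the highest. Its closest libraries in the 2 media were 43.9 times apart.

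PDE_07928 rose to 698.34, 1051.89 and 852.39 FPKM in WT. This put it at rank 138, 72 and 84 of the library's genes by FPKM, from rank 7073, 6938 and 6853 in glucose. The mean was 6.78 ± 0.169 FPKM in glucose and 868 ± 177 FPKM in cellulose (SD, n = 3), and the closest libraries were 101 times apart. PDE_02102 rose to 354.32, 599.81 and 319.36 FPKM, with its closest libraries 94.5 times apart.

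All 4 genes were called higher in WT, where 19.2% of the genes tested were called higher in cellulose. The rise of PDE_06439 was 4.46 ± 0.514 on the log2 scale (standard error), or 22.1-fold, with an adjusted p of 0.000271 in edgeR. PDE_00507 rose by 6.05 ± 0.953 on the log2 scale, or 66.4-fold, with an adjusted p of 0.00101 in edgeR. For PDE_07928 the edgeR fold was 114 and its log2 6.83 ± 1.1, with an adjusted p of 0.00113. The rise of PDE_02102 was the largest of the 4 as fitted, at 7.09 ± 1.03 on the log2 scale or 137-fold, with an edgeR adjusted p of 0.0007. The 95% interval of the rise was 3.34 to 5.59 for PDE_06439, below the point estimates of the other 3 genes. It still overlapped the intervals of PDE_00507 (3.97 to 8.13), PDE_07928 (4.42 to 9.24) and PDE_02102 (4.84 to 9.35), which also covered each other. Differences in the rise between genes were not tested.

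The glucose and cellulose groups did not overlap for any of the 4 genes in WT, a pattern that 33.2% of the genes tested had in this direction. The exact permutation p was 0.1 for each, two-sided, the smallest possible here. This comparison shares the WT cellulose libraries with the one on which the table was drawn up, so the high level there was in part fixed by the choice of genes. The 4 calls held in all 24 alternative settings run, with a highest adjusted p of 0.00931 across edgeR, DESeq2 and limma.

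**Figure D1:**
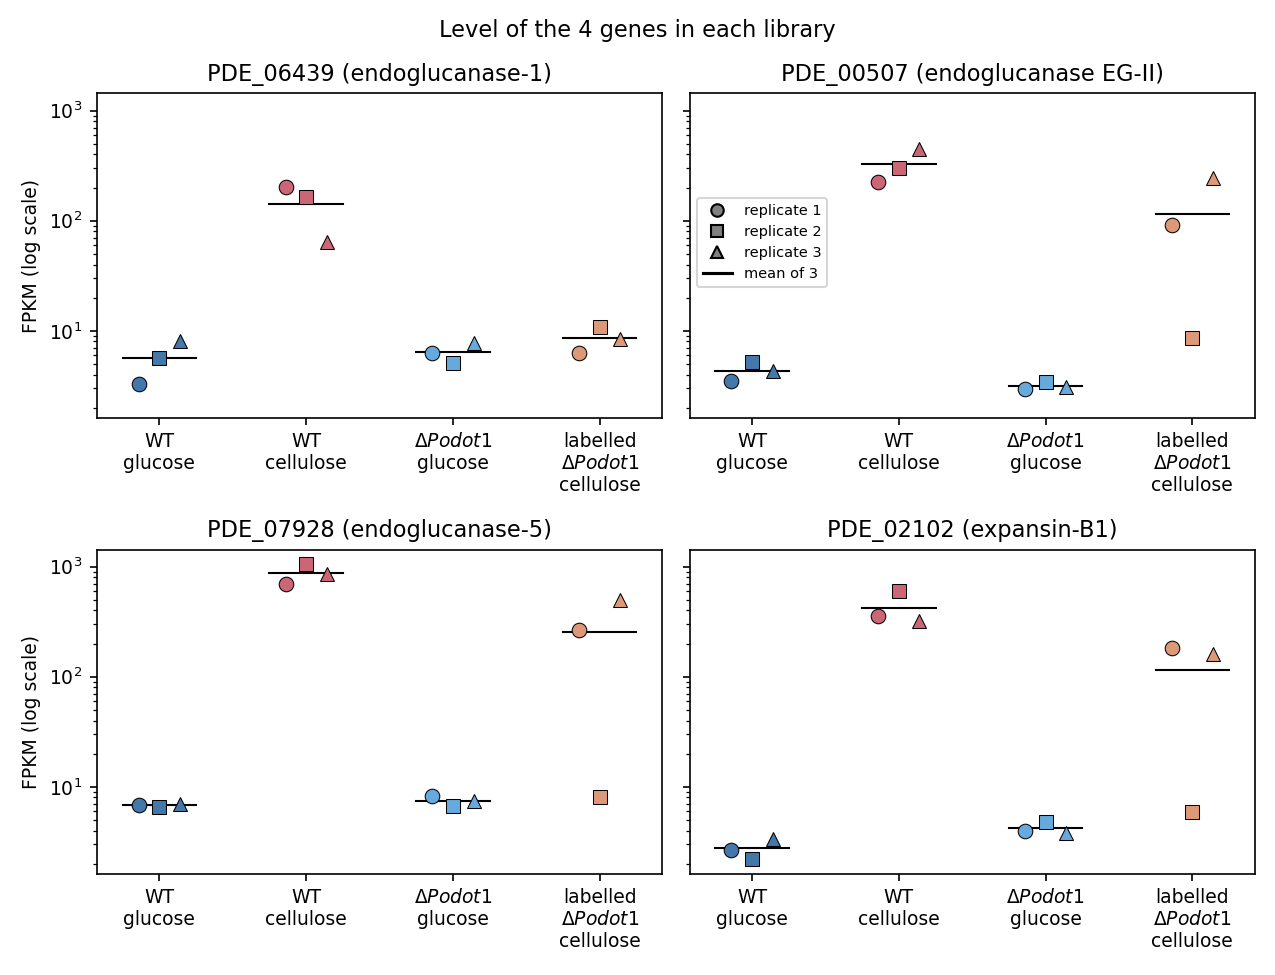
FPKM of each gene in each of the 12 libraries on a log axis, by strain and medium, with replicates as circle, square and triangle and the group mean as a line. In glucose all values lay between 2.20 and 8.17 FPKM. In cellulose PDE_06439 stayed between 6.32 and 10.88 FPKM in the libraries labelled Δ*Podot1*, while the other 3 genes were high there in replicates 1 and 3 and low in replicate 2.

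In the libraries labelled Δ*Podot1*, PDE_06439 was near its glucose level in cellulose medium, and the other 3 genes were higher there by group mean. PDE_06439 stood at 6.32, 10.88 and 8.46 FPKM in replicates 1, 2 and 3, or 0.993, 1.71 and 1.33 times the mean of Δ*Podot1* in glucose. All 3 libraries were low, and the range overlapped that of glucose. These cellulose libraries are the ones in which the table's genes were chosen for a low level, so a small rise here was in part fixed by the choice, for PDE_06439 as for the other 3 genes.

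PDE_00507 stood at 92.29, 8.58 and 242.42 FPKM, or 29.3, 2.73 and 77.0 times the glucose mean of Δ*Podot1*. Replicates 1 and 3 were high, and replicate 2, although low, was still 2.52 times the highest glucose library. PDE_07928 stood at 265.62, 8.05 and 496.33 FPKM. Its replicate 2 fell inside the glucose range of 6.71 to 8.17 FPKM, so that the groups overlapped. For PDE_02102 the values were 182.35, 5.93 and 159.43 FPKM, with replicate 2 only 1.23 times the highest glucose library.

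Of the 4 genes, 3 were called higher in cellulose in this comparison, where 13.4% of the genes tested were called higher. PDE_06439 was not called, with a log2 fold change of 0.25 ± 0.466, a 95% interval of -0.76 to 1.27 and an adjusted p of 0.734 in edgeR. PDE_00507 rose by 5.07 ± 0.916 on the log2 scale, or 33.5-fold, with an adjusted p of 0.00423 in edgeR. PDE_07928 rose by 5.0 ± 1.02 on the same scale, or 31.9-fold, with an edgeR adjusted p of 0.00657. The rise of PDE_02102 was 4.66 ± 0.922, or 25.3-fold, with an edgeR adjusted p of 0.0058. The intervals of these 3 genes covered each other. The exact permutation p was 0.1 for PDE_00507 and PDE_02102 and 0.2 for PDE_06439 and PDE_07928, all two-sided, and groups without overlap in this direction made up 21.9% of the genes tested.

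The 3 calls held when any 1 library was left out, but the size of the rise moved with the library left out. Without replicate 2, the library that resembled the glucose cultures, the log2 rise was 5.62 for PDE_00507, 5.57 for PDE_07928 and 5.22 for PDE_02102, with edgeR adjusted p of 1.8e-06, 3.61e-07 and 5.27e-07. Without replicate 3 it was 3.83 for PDE_00507, 4.04 for PDE_07928 and 4.32 for PDE_02102, and without replicate 1 it was 5.22, 4.99 and 4.20, in the same order. With replicate 3 alone, the only one free of *Podot1* reads, it was 6.17, 5.97 and 5.15, and in this edgeR fit, where the lone library is assumed to vary like the other groups, the adjusted p was 1.08e-06, 1.03e-06 and 3.18e-06. PDE_06439 was at 0.09 without replicate 2 and at 0.31 with replicate 3 alone, with edgeR adjusted p of 0.904 and 0.753. When only the 6 libraries compared were fitted, none of the 4 genes was called, with adjusted p of 0.0649 for PDE_00507, 0.0799 for PDE_07928 and 0.0723 for PDE_02102 at nearly the same fold changes, and edgeR called 163 genes in all instead of 1575. With limma on log2(FPKM + 10), PDE_07928 alone of the 3 lost its call, at an adjusted p of 0.051. On log2(FPKM + 1), limma gave smaller rises of 3.86 for PDE_00507, 3.66 for PDE_07928 and 3.51 for PDE_02102. It averages logs, so that the low replicate 2 weighs more than in edgeR, and its pseudocount also shrinks the change of low genes. The share of each in the smaller rises was not tested.

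**Figure D2:**
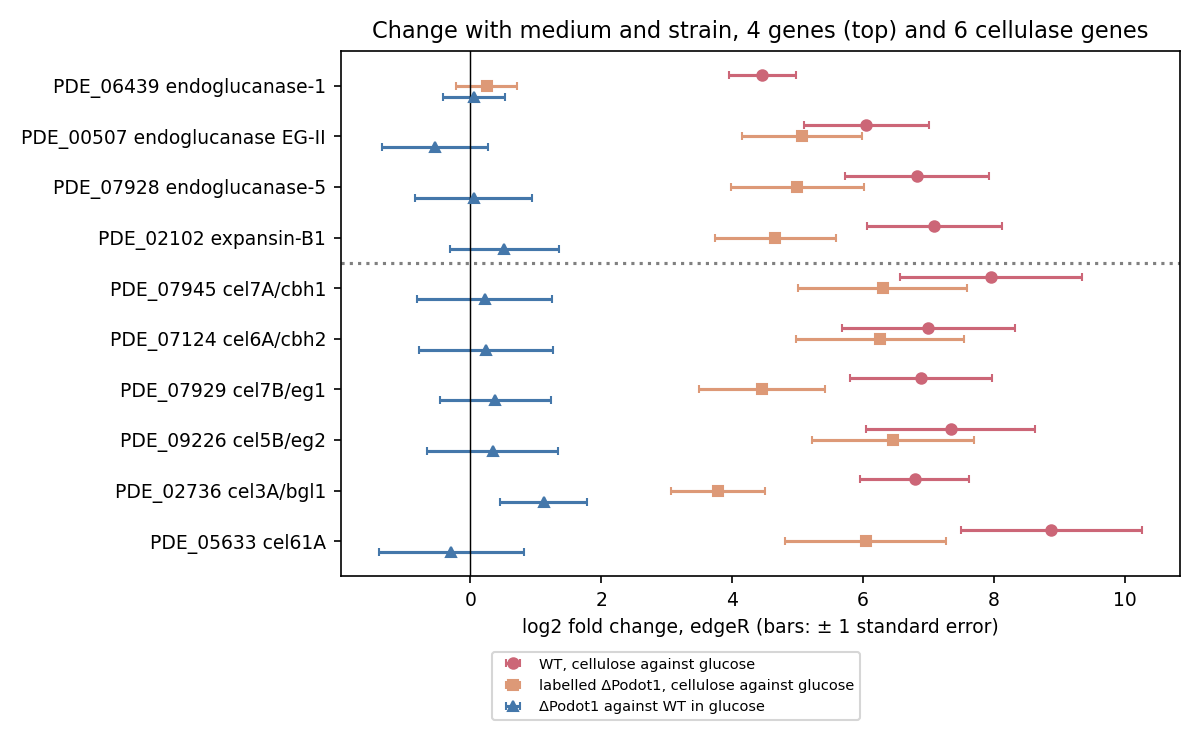
log2 fold change from edgeR with bars of 1 standard error for the 4 genes (top) and 6 cellulase genes (bottom), for cellulose against glucose in WT, the same in the libraries labelled Δ*Podot1*, and Δ*Podot1* against WT in glucose. Of the 10 genes shown, 10 were called higher in WT, 9 in the libraries labelled Δ*Podot1* and 0 in the glucose comparison, where the values lay between -0.54 and 1.12. Over all genes tested, the shares called were 19.2% and 13.4% higher in cellulose, and 8.84% in either direction in glucose. The 4 genes and cel7A, cel7B, cel3A and cel61A were chosen on these cellulose libraries, so their values there were in part fixed.

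In cellulose, the contrast on which the table was drawn up, PDE_06439 was low in all 3 libraries labelled Δ*Podot1*. Their FPKM were 4.43%, 7.63% and 5.93% of the WT cellulose mean in replicates 1, 2 and 3. Replicates 1 and 2, with *Podot1* reads, and replicate 3, without them, were alike in this. The other 3 genes differed widely within the group. PDE_00507 was at 28.4%, 2.64% and 74.6% of the WT mean, and replicate 3, at 242.42 FPKM, lay inside the WT range of 226.09 to 445.30 FPKM. PDE_07928 was at 30.6%, 0.928% and 57.2%, and PDE_02102 at 43.0%, 1.40% and 37.6%. For these 2 genes every library labelled Δ*Podot1* was below every WT library, and replicate 2 was lower than its group's other libraries by more than an order of magnitude.

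Described as log2 fold changes against WT in cellulose, the values were -4.15 for PDE_06439, -1.53 for PDE_00507, -1.79 for PDE_07928 and -1.92 for PDE_02102. Without replicate 2 they were -4.31, -0.98, -1.22 and -1.35 in the same order, and with replicate 3 alone -4.09, -0.42, -0.81 and -1.42. Without replicate 3 they were -4.19, -2.77, -2.75 and -2.26, and without replicate 1 -3.98, -1.38, -1.79 and -2.38. Across these choices PDE_06439 moved least, and the fitted folds of the other 3 genes each spanned more than 2-fold. In limma on log2(FPKM + 1) the values were -3.78, -2.38, -3.01 and -2.80, larger drops than in edgeR for the last 3 genes. The response to cellulose in the libraries labelled Δ*Podot1* minus that in WT was -4.21 for PDE_06439, -0.98 for PDE_00507, -1.83 for PDE_07928 and -2.43 for PDE_02102 on the log2 scale, again as a description. Without replicate 2 it was -4.37, -0.43, -1.26 and -1.87 in the same order. With replicate 3 alone it was -4.14, 0.12, -0.86 and -1.94, so that the sign turned for PDE_00507.

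**Figure D3:**
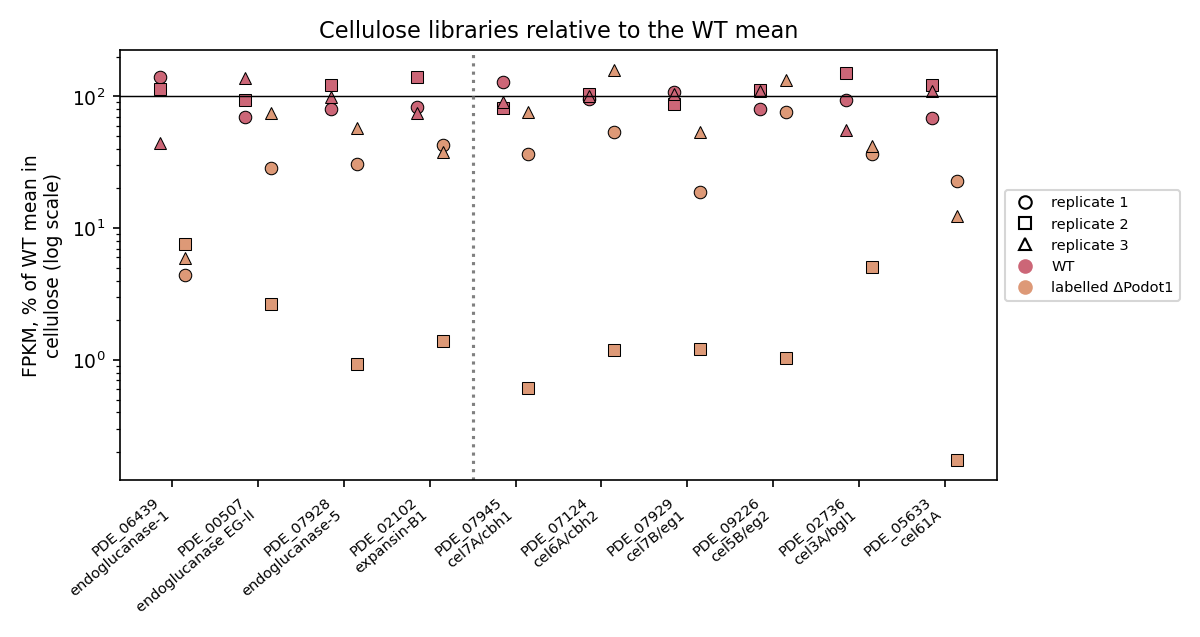
FPKM of each cellulose library as a percentage of the WT cellulose mean, on a log axis, for the 4 genes (left) and the 6 cellulase genes (right), with WT and the libraries labelled Δ*Podot1* in 2 colours and replicates by symbol. For PDE_06439 the 3 libraries labelled Δ*Podot1* lay together at 4.43% to 7.63%. For the other 9 genes replicate 2 lay at 0.173% to 5.05%, below replicates 1 and 3.

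The genes were also compared within each library, where scaling between libraries enters only through the pseudocount of 1 FPKM. At the low levels in glucose that pseudocount shrinks the differences between genes. On log2(FPKM + 1), PDE_06439 minus the mean of the other 3 genes was -0.25, 0.33 and 0.67 in WT in glucose and 0.36, 0.07 and 0.67 in Δ*Podot1* in glucose. In glucose, that is, PDE_06439 was close to the mean of the other 3 genes on this scale. In WT in cellulose the difference was -0.92, -1.82 and -2.94, so PDE_06439 lagged behind, by an amount that varied between replicates. It was -4.50 in replicate 1 and -4.83 in replicate 3 of the libraries labelled Δ*Podot1*, both below all WT libraries, and 0.49 in replicate 2, within the range of the glucose libraries.

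**Figure D4:**
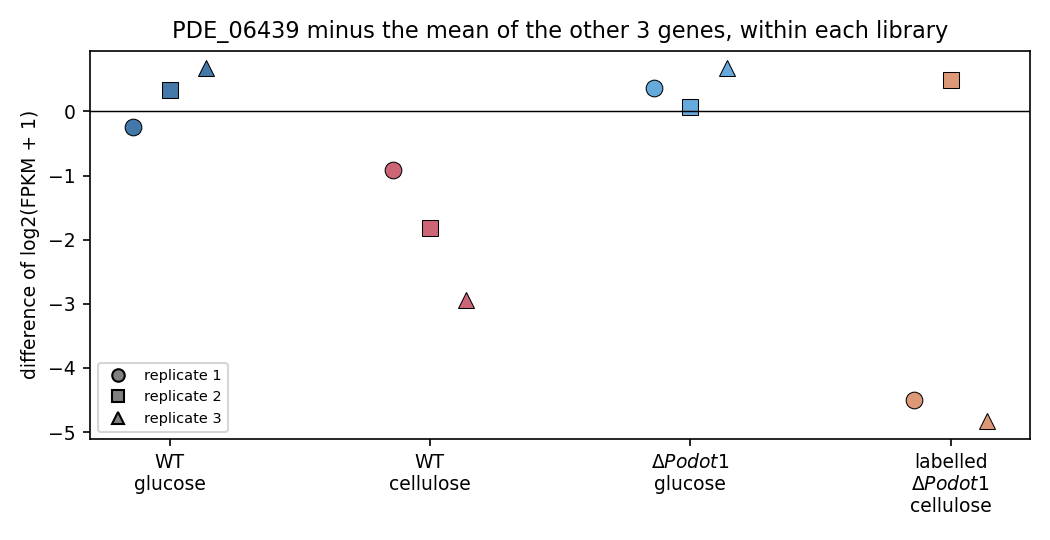
PDE_06439 minus the mean of the other 3 genes, as a difference of log2(FPKM + 1), in each of the 12 libraries by strain and medium. The 6 glucose libraries lay between -0.25 and 0.67, the WT cellulose libraries between -2.94 and -0.92, and the libraries labelled Δ*Podot1* at -4.50, 0.49 and -4.83.

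The order of the 4 genes by mean FPKM changed with the medium. In WT in glucose the order was PDE_07928, PDE_06439, PDE_00507 and PDE_02102, and only the last pair of neighbours did not overlap between libraries. In Δ*Podot1* in glucose PDE_02102, at 4.20 ± 0.532 FPKM (SD, n = 3), stood above PDE_00507, at 3.15 ± 0.24 FPKM, without overlap, the reverse of WT, where they were at 2.76 ± 0.593 and 4.29 ± 0.845 FPKM. In WT their closest libraries were at 3.38 and 3.46 FPKM. These levels rest on few reads, neither gene was called between the strains in glucose, and the reversal was not tested. In WT in cellulose the order was PDE_07928, PDE_02102, PDE_00507 and PDE_06439, and the middle pair overlapped. The same order held in the libraries labelled Δ*Podot1* by mean FPKM, but all neighbours overlapped.

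Together the 4 genes took 0.00209% to 0.00281% of the reads in WT in glucose and 0.197%, 0.29% and 0.227% in WT in cellulose. Their share in the libraries labelled Δ*Podot1* was 0.0781%, 0.00436% and 0.122% in replicates 1, 2 and 3. PDE_07928 made up 47.2%, 49.7% and 50.7% of the summed FPKM of the 4 genes in WT in cellulose, and 48.6% and 54.7% in replicates 1 and 3 of the libraries labelled Δ*Podot1*. PDE_06439, in contrast, made up 13.6%, 7.69% and 3.78% in WT in cellulose, and 1.16% and 0.933% in those same replicates.

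The main cellulase genes give the setting for these values. They were cel7A and cel6A (cellobiohydrolases), cel7B and cel5B (endoglucanases), cel3A (a beta-glucosidase) and cel61A (a lytic polysaccharide monooxygenase, which cuts cellulose by oxidation). In WT all 6 were called higher in cellulose, against 19.2% of the genes tested. Their median log2 fold change was 7.17, against 6.44 for the 4 genes described here and 0.05 over all genes tested. All 6 were called higher in the libraries labelled Δ*Podot1* as well, against 13.4% of the genes tested. Their median there was 6.15, against 4.83 for the 4 genes and 0.07 over all genes. With replicate 3 alone these medians were 6.74, 5.56 and -0.02, and the 6 calls held. In glucose none of the 6 was called between the strains, where 8.84% of the genes tested were called. The medians were 0.29 for the cellulases, 0.05 for the 4 genes and -0.03 over all genes. Against WT in cellulose the median was -1.66 for the cellulases and -1.85 for the 4 genes, again as a description, since 4 of the 6 cellulases (cel7A, cel7B, cel3A and cel61A) stand in the same table. With replicate 3 alone these 2 medians were -0.65 and -1.12.

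The remaining 6 genes of the table act on other wall and storage glucans and side chains. All 6 were called higher in WT in cellulose (median log2 fold change 5.70), against 19.2% of the genes tested. The table was drawn up on the cellulose libraries of both labels, so the counts here were in part fixed by that choice. In the libraries labelled Δ*Podot1* 3 of the 6 were called higher, against 13.4% of the genes tested. These were PDE_04151 (an alpha-glucosidase, 3.67), PDE_09417 (a glucoamylase, 2.83) and PDE_09278 (an acetylxylan esterase, 2.67). The 3 that were not called there were PDE_01756 (an alpha-glucosidase, log2 fold change 0.21), PDE_02004 (an endo-1,6-beta-glucanase, 1.15) and PDE_02583 (a galactanase, 2.33), with edgeR adjusted p of 0.714, 0.131 and 0.0558. This split depended on the libraries. Without replicate 2 PDE_02583 was called as well (2.84, edgeR adjusted p 0.00105), and without replicate 3 PDE_02004 was (1.54, 0.024) and PDE_09417 was not (2.07, 0.0822). Without replicate 1 neither PDE_09417 nor PDE_09278 was called, at edgeR adjusted p of 0.0696 and 0.0612. PDE_04151 kept and PDE_01756 lacked a call without each replicate. With replicate 3 alone the log2 fold changes were 3.97 for PDE_04151, 3.69 for PDE_09417 and 3.33 for PDE_09278. They were -0.1 for PDE_01756, -0.34 for PDE_02004 and 3.12 for PDE_02583. The xylanase gene xyn10A (PDE_08094) was called higher in both, at 7.33 in WT and 6.09 in the libraries labelled Δ*Podot1* (6.94 with replicate 3 alone).

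Not every gene annotated as an endo-beta-1,4-glucanase rose in cellulose. PDE_09014 fell by 1.76 on the log2 scale in WT, with an adjusted p of 0.00262 in edgeR, and PDE_03711 had a log2 fold change of -2.0 with an edgeR adjusted p of 0.0525, which missed the threshold. Neither was called in the libraries labelled Δ*Podot1*, with log2 fold changes of -0.38 and -2.09. Without replicate 2 PDE_03711 was called lower there, at -3.87 with an edgeR adjusted p of 7.07e-05.

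The profile of each gene across the 12 libraries was set against those of the 7382 genes that averaged 10 FPKM or more. Likeness was measured as the root mean square difference of log2(FPKM + 1) after centring each gene on its own mean, a description in which all genes share the same libraries. The gene most like PDE_07928 was cel7B (PDE_07929), the endoglucanase gene with the next locus tag, at 0.33, followed by PDE_05194 and PDE_02102, both at 0.37. The FPKM of PDE_07928 was 0.433 to 0.804 times that of cel7B in 11 libraries and 0.95 times in the remaining one, replicate 1 labelled Δ*Podot1* in cellulose. PDE_07928 was in turn the gene most like PDE_02102, followed by PDE_05222 and PDE_04012, both at 0.43. For PDE_00507 the closest were PDE_04105 at 0.40, PDE_07393 at 0.45 and PDE_04012 at 0.48, with PDE_07928 ranked 6 at 0.52 and PDE_02102 ranked 17 at 0.61.

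PDE_06439 had other neighbours. Those most like it were PDE_02004, the endo-1,6-beta-glucanase gene of the same table, at 0.58, PDE_09228 at 0.60 and PDE_09947 at 0.61. None of these was called higher in cellulose with all 3 libraries labelled Δ*Podot1*, at 1.15, 1.22 and -0.06 (edgeR adjusted p 0.131, 0.276 and 0.887). Without replicate 3 PDE_02004 was called, at 1.54 with an edgeR adjusted p of 0.024. With replicate 3 alone the 3 genes were at -0.34, -0.47 and 0.27. Against WT in cellulose their log2 fold changes were -3.66, -4.36 and -4.66. The pattern of PDE_06439 was therefore not particular to it, although these genes were picked for likeness in the same libraries. The other 3 genes described here ranked 3109 (PDE_00507, at 1.84), 3736 (PDE_02102, at 1.93) and 4652 (PDE_07928, at 2.06) of the 7382. Seen from those genes, PDE_06439 ranked much nearer, at 577 from PDE_00507, 501 from PDE_02102 and 529 from PDE_07928. The measure counts the size of the changes as well as their shape, so the rank depends on the gene it is taken from.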

How the data were processed

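RNA was measured in 12 libraries, 3 for each strain and medium, grouped by the sample labels. The authors deposited unnormalized estimated counts per gene, 0.713% of them not whole, and, as the deposited second measure, FPKM values normalized for transcript length and mapped reads. Mapping used HISAT and Bowtie2, with versions and counting program not given in the sources used here. Counting may divide reads between near-identical genes, which makes levels of close family members uncertain. Genes without a read were not listed and were taken as 0.

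Estimated counts were rounded and tested by the quasi-likelihood functions of edgeR 4.0.16 in R 4.3.3, after its default low-count filter (filterByExpr) and TMM scaling. The model had 1 mean per group and took in all 12 libraries. Of 9909 genes 9088 were tested, and p-values were Benjamini-Hochberg adjusted over all of them. Genes were called at an adjusted p under 0.05 and at least 2-fold. A standard error is the size of the log2 fold change over the root of its F statistic, and 95% intervals use the matching t quantile. For single genes an exact permutation test, two-sided, was run on log2(FPKM + 1). The procedure was tested on simulated data. The total count per library was 4607764 to 7081689.

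The results were also computed with DESeq2 1.42.0, with limma 3.58.1 on log2(FPKM + 1) and on pseudocounts of 0.1 and 10, with other scalings and filters, with fewer groups, with the replicate number as a block, and with each library left out. The genes, lists and tests were chosen with earlier results of these data known. The text names the 4 genes, *Podot1*, the other genes of the study's table, the cellulase and endoglucanase genes listed in the study, the 3 genes most like each of the 4, and the genes within 2 locus tags of each. Sequences and genome positions were not analysed here.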

Additional observations from a re-analysis of the deposited data

How the results depend on the processing

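The number of the 4 genes called was 4 in WT in cellulose and 0 between the strains in glucose under every alternative run. In cellulose with the Δ*Podot1* label it was 3, or 2 with limma on log2(FPKM + 10), where PDE_07928 had an adjusted p of 0.051, and 0 when only the 6 libraries compared were fitted. That scale understates low genes and moved the strain difference of PDE_06439 in cellulose to -2.91. Leaving out 1 library turned the sign of the strain difference in glucose for 2 genes that were never called, PDE_06439 (-0.24 to 0.43) and PDE_07928 (-0.01 to 0.13). The fit without all 3 libraries labelled Δ*Podot1* in cellulose was chosen after seeing the data and changed no call. Same-numbered libraries showed little joint deviation, with correlations of their deviations from -0.186 to 0.196. Libraries with different numbers were not compared in this way, and whether those with the same number shared a batch was not tested. With the replicate number as a block, 4, 3 and 0 of the genes were called, and over all genes the calls went from 3192 to 3064 in WT, from 1575 to 1263 in the libraries labelled Δ*Podot1* and from 803 to 619 in glucose. The glucose values rest on 15 to 61 reads per gene and library.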

Other observations

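The 16 genes within 2 locus tags of the 4 genes were also read. Locus tags stand for order along the genome, and positions were not used. Next to PDE_02102, all 4 tags (PDE_02100, PDE_02101, PDE_02103 and PDE_02104) were called higher in cellulose in WT, with log2 fold changes of 3.36, 2.67, 2.69 and 4.28 and edgeR adjusted p of 0.00055, 0.00106, 0.00242 and 0.000873. Over all genes tested, 19.2% were called higher there. The tags around PDE_00507 (PDE_00505, PDE_00506, PDE_00508 and PDE_00509) were not called higher in WT. Neither were PDE_07926 and PDE_07930, near PDE_07928. In the libraries labelled Δ*Podot1* PDE_02100 and PDE_02101 were called, at 3.26 and 2.15, and PDE_02103 and PDE_02104 were not, at 1.44 and 0.87, with edgeR adjusted p of 0.0605 and 0.312. Without replicate 2 both were called, at 1.85 and 1.29, with edgeR adjusted p of 0.0016 and 0.0463, and with replicate 3 alone PDE_02103 was (2.25, 0.000995) and PDE_02104 was not (1.40, 0.0882). PDE_02104 was also higher in Δ*Podot1* than in WT in glucose, at 139 ± 21.5 FPKM compared with 16.0 ± 9.46 FPKM (SD, n = 3), which is 3.08 on the log2 scale, with an edgeR adjusted p of 0.0113.

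Beside PDE_07928, on the other side from cel7B, PDE_07927 (annotated as an aspartic protease) rose in WT. Its level was 22.6 ± 6.39 FPKM on glucose and 1143.8 ± 703 FPKM on cellulose (SD, n = 3), a log2 fold change of 5.46 with an edgeR adjusted p of 0.000242. In the libraries labelled Δ*Podot1* it stood at 36.4 ± 2.71 FPKM in glucose and 39.9 ± 25.2 FPKM in cellulose, with a log2 fold change of -0.02 and an edgeR adjusted p of 0.981. Without replicate 2 the log2 fold change was 0.17 and with replicate 3 alone -0.85, with edgeR adjusted p of 0.817 and 0.312. PDE_07928 itself was called higher in both. So was cel7B (PDE_07929), at 6.89 in WT and 4.46 in the libraries labelled Δ*Podot1*, with edgeR adjusted p of 0.000967 and 0.00847. The tags on either side of PDE_07928, PDE_07927 and PDE_07929, thus differed in their calls in the libraries labelled Δ*Podot1*. The difference between the 2 genes was not tested.

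Beside PDE_00507, which was not called between the strains in glucose, the next 2 tags were lower in Δ*Podot1* than in WT in that medium. PDE_00508 stood at 374 ± 50.2 FPKM compared with 3300.6 ± 1048.1 FPKM (SD, n = 3), a log2 fold change of -3.20 with an edgeR adjusted p of 0.0097. PDE_00509 stood at 532 ± 79.4 FPKM compared with 3744.9 ± 1591 FPKM, a log2 fold change of -2.87 with an edgeR adjusted p of 0.00904. Around PDE_06439, none of the 4 tags was called higher in cellulose in WT, and PDE_06441 fell by 1.90 on the log2 scale with an edgeR adjusted p of 0.0294.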
